A study of Homo sapiens with 6 samples.

Results

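Long intergenic non-coding RNAs (lincRNAs) that were expressed in HCT116 stem cells were described across 6 RNA-seq libraries. The members were chosen by their level: a gene of the lincRNA biotype belonged to the group when its mean FPKM (fragments per kilobase of exon, scaled to the size of the library) over all 6 libraries was at least 2. MALAT1, NEAT1, H19, CCAT1, UCA1, PVT1, TUG1, CYTOR, MIR210HG and genes with deposited names starting SNHG were left out by name, which removed 10 lincRNA genes at that minimum. This left 171 members among 7629 lincRNA genes and 58735 genes in all. The member LINC02001, which RefSeq names SNHG30, was kept under its deposited name. The level that selected them was the mean over both groups, so it is given below as a description, while the difference between the groups was not part of the rule. For comparison, 4185 lincRNA genes had no read in any library and a further 202 had a mean FPKM from 1 to under 2.

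A lincRNA is a transcript longer than a typical small RNA that is made by RNA polymerase II from DNA between protein-coding genes, is usually capped and spliced, and has no long reading frame. Most lincRNAs are made at low levels and in few cell types, many stay in the nucleus, and many are degraded there by the nuclear exosome soon after they are made. Some have known functions: NORAD binds Pumilio proteins and helps to keep the chromosome number stable, several are the precursors from which microRNAs are cut, and a few were later found to encode small proteins. Of the 171 members, 116 carry the name of a genomic clone and 55 a given name.

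HCT116 is a human colorectal cancer cell line. The libraries came from HCT116SCs, the CD44+CD326+ cells that were taken from this line with magnetic beads and grown as tumor spheres in serum-free medium, and their genotype labels read WT for the controls and PSCA knockdown for the others. Cells in 3 libraries (NC 1 to NC 3) received the negative control (NC) siRNA and cells in 3 libraries (siPSCA 1 to siPSCA 3) received PSCA siRNA, in both groups with a liposomal reagent, and all were harvested 48 h later. PSCA, prostate stem cell antigen, is a surface protein held by a lipid anchor, and the comparison asks which transcripts differ when it is silenced. Which of the PSCA siRNA sequences was used for these libraries is not given in the sources used here, so the siPSCA group stands for 1 siRNA treatment of 1 cell line. The titles of siPSCA 2 and siPSCA 3 name HCT117 and HCT118, whereas their other labels name HCT116. Nothing states that the 3 libraries of a group came from separate cultures, so p-values measure the spread between these libraries, which may be technical.

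Reads on genes numbered from 16099716 to 17302219 per library. PSCA itself had 4, 12 and 15 reads in NC 1 to NC 3 and 9, 9 and 7 reads in siPSCA 1 to siPSCA 3, so a lower PSCA transcript level was not detectable at this depth. Of 8 epithelial and sort markers, EPCAM, which encodes CD326, lay between 93.3 and 122.9 FPKM with overlapping groups. The sort marker CD44 fell, from 81.1, 79.2 and 87.5 FPKM in NC to 59.6, 60.1 and 62.4 in siPSCA, and CDH1 fell, from a range of 28.0 to 32.1 in NC to one of 18.8 to 19.9 in siPSCA, whereas KRT8, KRT19 and CDX2 rose, by 0.22, 0.25 and 0.70 on the log2 scale. The 8 markers summed to 807 to 868 FPKM in NC and 861 to 890 in siPSCA, and the part of these differences in the results below was not tested. The leukocyte marker CD3E had no read in any library and the highest value of any leukocyte or endothelial marker was 0.268. VIL1, a marker of differentiated intestinal epithelium, reached at most 0.0407 FPKM. Of 5 fibroblast markers COL1A1 lay at 3.35 to 6.51 FPKM, and the highest value among the others was 0.156. The library NC 3 stood apart from its group: its root mean square log2 difference from NC 1 and NC 2 was 0.41 and 0.39, against 0.268 between those libraries and 0.254 to 0.268 among the siPSCA libraries. Without NC 3, calls of 11 members were gained and 2 lost, and for named members among them both values are given. In bulk RNA, fewer cells of a type and less RNA per cell cannot be told apart.

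The members were a small and uneven part of the transcriptome. They held 0.207% to 0.212% of the reads on genes in NC and 0.184% to 0.188% in siPSCA, and these ranges did not overlap. In reads this was 33944, 34918 and 35363 in NC 1 to NC 3 and 29564, 30813 and 32451 in siPSCA 1 to siPSCA 3. The 10 members with the most reads carried 48.67% of all member reads. By mean FPKM, 11 members reached at least 10, 32 lay from 5 to under 10, and 128 lay under 5, with a median of 3.02. The median member was covered by 80.5 reads per library and was 1069 bases long, and the lowest read number of any member in any library was 3. Of the 171 members, 125 had a group mean FPKM of at least 2 in both groups, 31 in NC only and 15 in siPSCA only, as the plot of group means shows. At the edge of the rule, the members AC060780.1, AC012306.2 and LINC00294 had means of 2.00, 2.01 and 2.03, and the lincRNAs AC090023.2, AC020661.1 and AC015912.3, with means of 1.9996, 1.99 and 1.97, fell outside it.

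**Figure D1:**
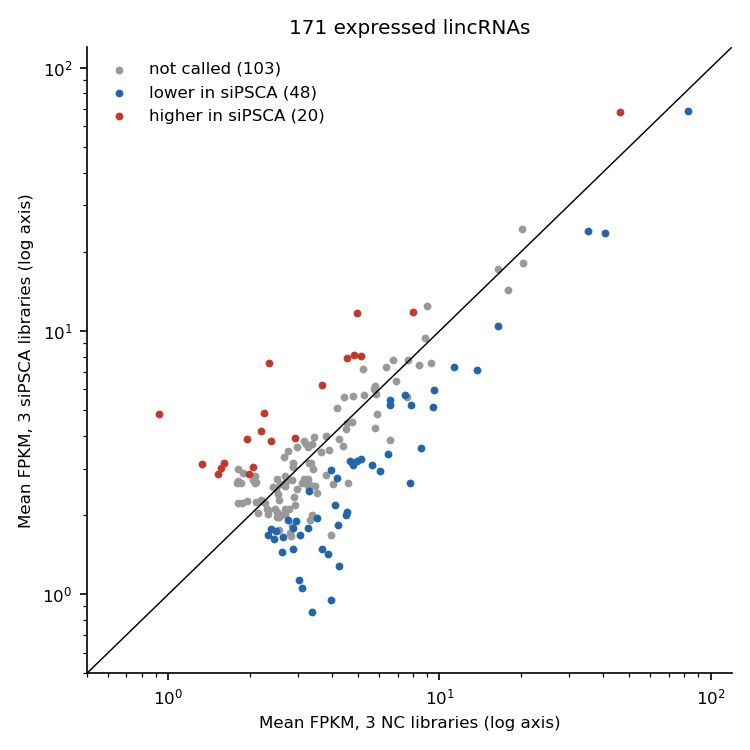
Each point is 1 of the 171 members, placed by its mean FPKM in the 3 NC libraries (horizontal, log axis) and in the 3 siPSCA libraries (vertical, log axis), with the line of equal level drawn. Blue points mark the 48 members called lower and red points the 20 called higher in siPSCA; most members lie under 10 FPKM, and NORAD is the point furthest to the right.

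More members fell than rose after siPSCA transfection. By limma on log2(FPKM + 1), with p-values adjusted over all 13796 genes that had a mean FPKM of at least 1, 68 of 171 members (39.8%) passed an adjusted p of 0.05, against 50.7% of all genes tested. The 48 that were lower made up 28.1% of the members, where the share over all genes was 24.2%. The 20 that were higher made up 11.7%, where the share over all genes was 26.6%. The median log2 fold change was -0.14 over the members and 0.01 over all genes tested, and 105 members had a negative value. The shift was also visible in the raw levels: the median FPKM of the members was 3.45, 3.32 and 3.46 in NC 1 to NC 3 and 3.05, 2.94 and 2.99 in siPSCA 1 to siPSCA 3. Without NC 3, 77 members passed, 24 of them higher and 53 lower.

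Other call rules also gave more falls than rises. All 3 siPSCA values lay below all 3 NC values for 58 members (33.9%), where the share over all genes tested was 30.8%. They lay above all NC values for 27 members (15.8%), where that share was 33.7%. With an unadjusted p under 0.05 and an absolute log2 fold change over 0.5, 17 members were higher and 33 lower. These were 50 in all or 29.2%, where 24.9% of all genes passed, 2027 of the 13796 higher and 1407 lower. Lower-level lincRNAs, with a mean FPKM from 1 to under 2, had 20 higher (9.90%) and 35 lower (17.3%) among 202. Their median log2 fold change was -0.12. Among 570 antisense genes 53 were higher (9.30%) and 102 lower (17.9%), whereas among 11079 protein-coding genes 3424 were higher (30.9%) and 2795 lower (25.2%). Over all genes tested 26.6% were higher and 24.2% lower, so both shares of these lincRNAs and of the antisense genes lay below those of all genes. Lists of unequal depth are not called equally often. Among members with at least 150 reads per library 47.9% were called and among all genes of that depth 58.2%, while under 50 reads the shares were 36.7% and 23.5%.

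FAM160A1-DT (ENSG00000251611) had the largest fall among members whose groups did not overlap. It is read from chromosome 4 (151407551 to 151408835, minus strand), starting 381 bases from the gene FAM160A1 and pointing away from it, and has 2 exons with 358 bases. Its FPKM was 4.65, 3.53 and 3.73 in NC 1 to NC 3 and 0.991, 0.786 and 1.07 in siPSCA 1 to siPSCA 3. All siPSCA libraries lay far below all NC libraries, although the siPSCA values rest on 5 to 7 reads each. The log2 fold change was -1.35 ± 0.11 (SE, n = 3 against 3, adjusted p = 0.00077), a level 4.18-fold higher in NC on the FPKM scale. FAM160A1 itself fell in the same direction, from 5.44, 5.29 and 5.78 FPKM to 2.48, 2.59 and 2.62.

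The other large falls included a group on chromosome 12, described below, and single members elsewhere. AL138963.1 (chromosome 13, 45350323 to 45351350), which lies 8953 bases from TPT1, had 3.26, 4.63 and 2.25 FPKM in NC and 0.763, 0.908 and 0.885 in siPSCA (log2 fold change -1.21, adjusted p = 0.00449), and TPT1 fell by 0.95 on the same scale. AC005261.3 (chromosome 19, 57261354 to 57262738) had 3.27, 4.60 and 4.86 FPKM in NC and 1.37, 1.30 and 1.19 in siPSCA (-1.19, adjusted p = 0.00153). The groups were separate for both, and AL138963.1 had only 4 to 5 reads in a siPSCA library. AC083843.2, with a single exon of 6253 bases on chromosome 8 (134792020 to 134798272), was one of the better covered: 3.70, 3.97 and 3.96 FPKM in NC against 1.16, 1.57 and 1.52 in siPSCA, from 123 to 432 reads per library (-1.02, adjusted p = 0.000875; -0.67 with the GC and length trend removed). All NC libraries lay close together and far above all siPSCA libraries. AC011374.2 had 4.07, 2.51 and 2.76 FPKM in NC and 1.91, 0.642 and 0.626 in siPSCA (-1.04, adjusted p = 0.0198), where siPSCA 1 stood above the other two; the adjusted p ranged from 0.0521 to 0.066 without NC 1, siPSCA 2 or siPSCA 3. With the GC and length trend removed, as described below, its value was -0.61 (adjusted p = 0.128). AC127024.5, which overlaps CRLF3 on the opposite strand and shares 133 exon bases with it, fell from 3.09, 3.11 and 4.90 FPKM to 1.66, 1.71 and 1.07 (-0.91, adjusted p = 0.00856), and had -0.48 with that trend removed (adjusted p = 0.0719).

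**Figure D2:**
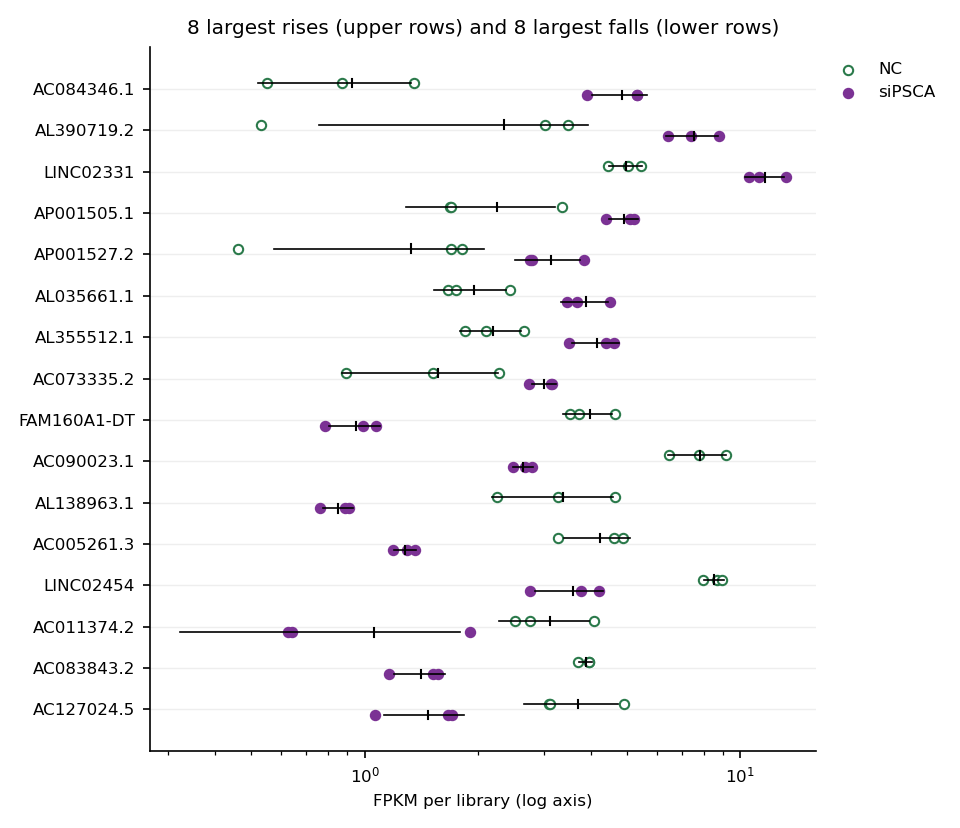
FPKM of each library (horizontal, log axis) for the 8 members with the largest rise (AC084346.1 to AC073335.2) and the 8 with the largest fall (FAM160A1-DT to AC127024.5) among members past an adjusted p of 0.05 whose groups did not overlap. Open circles are NC, filled circles siPSCA, ticks the group means and horizontal bars 1 SD; NC 3 is the leftmost open circle for AL390719.2, at 0.529, and for AP001527.2, at 0.46.

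On chromosome 12, 3 members that fell lie close together, with MSRB3, which encodes a methionine sulfoxide reductase, as their nearest protein-coding gene. AC025419.1 runs on the minus strand from 65466820 to 65642372 and overlaps MSRB3. AC090023.1 (65559591 to 65560889) and LINC02454 (ENSG00000256268, 65602869 to 65612997) lie within the span of AC025419.1 on the plus strand. They lie 68161 and 111439 bases downstream of MSRB3. AC090023.1 had 6.45, 7.78 and 9.17 FPKM in NC and 2.67, 2.79 and 2.48 in siPSCA (log2 fold change -1.26 ± 0.12, adjusted p = 0.000999). LINC02454 had 7.98, 8.66 and 8.95 FPKM in NC and 3.76, 4.21 and 2.76 in siPSCA (-1.07 ± 0.13, adjusted p = 0.00174). AC025419.1 had 5.92, 6.05 and 6.08 FPKM in NC and 2.71, 3.04 and 3.08 in siPSCA (-0.83 ± 0.062, adjusted p = 0.000599). For all 3 every siPSCA library lay below every NC library, whereas MSRB3 had a log2 fold change of 0.14 and did not pass. AC025419.1 was named after its values were seen, and its exons share 88 bases with MSRB3 on the opposite strand.

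To show what these transcripts are, the start of the AC090023.1 transcript and the promoter of LINC02454 are given. The AC090023.1 line holds bases 1 to 120 of its longest transcript in GENCODE release 29, with CG dinucleotides in capitals, of which there is 1. The LINC02454 window is the RefSeq promoter on GRCh38.p14, chr12:65602619-65602918, plus strand, from 250 bases before the start to 50 after it, and holds none of the 3 motifs searched below, so it has no capitals.
AC090023.1 transcript: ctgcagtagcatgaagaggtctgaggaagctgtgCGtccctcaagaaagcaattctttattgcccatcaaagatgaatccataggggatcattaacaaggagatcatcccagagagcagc
LINC02454 promoter: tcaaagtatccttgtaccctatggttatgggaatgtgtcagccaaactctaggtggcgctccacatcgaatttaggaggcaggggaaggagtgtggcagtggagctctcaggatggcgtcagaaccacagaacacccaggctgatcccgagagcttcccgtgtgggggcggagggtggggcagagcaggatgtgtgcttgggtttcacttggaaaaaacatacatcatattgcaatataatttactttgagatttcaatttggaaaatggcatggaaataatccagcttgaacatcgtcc

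The 171 members formed 13 groups of neighbours less than 250000 bases apart, with 27 members in all, a limit chosen after values were seen. In 2 of these groups more than 1 member was called, and both groups fell: the one on chromosome 12 described above and a pair on chromosome 19, AC005261.3 and AC005261.1. AC005261.1 (57304305 to 57308562) had 12.1, 11.9 and 9.80 FPKM in NC and 7.09, 6.96 and 7.79 in siPSCA (log2 fold change -0.56, adjusted p = 0.00427). Its groups were separate, and with the GC and length trend removed the value was -0.26 (adjusted p = 0.0829). The zinc finger genes nearest to this pair, ZNF805 and ZNF460, fell as well, with log2 fold changes of -0.70 and -0.44. In none of the 13 groups was one member called higher and another lower.

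The largest rise was that of AC084346.1 (ENSG00000254057), a spliced transcript of 528 bases on chromosome 8 (93834454 to 93846743, minus strand). Its FPKM was 1.35, 0.870 and 0.550 in NC and 3.92, 5.33 and 5.30 in siPSCA (log2 fold change 1.62 ± 0.18, adjusted p = 0.00153). The groups were far apart, on 5 to 12 reads per NC library and 35 to 51 per siPSCA library. Its nearest protein-coding gene, PDP1, had a log2 fold change of -0.03 and did not pass.

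LINC02331 (ENSG00000235269) rose with its neighbour. It is read from the minus strand of chromosome 14 (53768942 to 53850882), 98854 bases downstream of BMP4. BMP4 encodes a bone morphogenetic protein, a secreted growth factor. LINC02331 had 4.45, 5.44 and 5.01 FPKM in NC and 13.3, 10.6 and 11.2 in siPSCA (log2 fold change 1.08 ± 0.1, adjusted p = 0.000998). BMP4 had 74.8, 75.3 and 67.1 FPKM in NC and 144, 141 and 133 in siPSCA (0.94, adjusted p = 0.00048). For both, every siPSCA library lay above every NC library, and LINC02331 had a log2 fold change of 1.09 without NC 3.

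The rise of 3 GC-rich members with a single exon rested in part on NC 3. AL390719.2 (chromosome 1, 1169357 to 1170343) had 3.01, 3.49 and 0.529 FPKM in NC and 8.80, 6.44 and 7.40 in siPSCA (log2 fold change 1.49 ± 0.41, adjusted p = 0.0243). AP001527.2 (chromosome 11, 102109827 to 102110457), which starts 4 bases from YAP1, had 1.70, 1.82 and 0.460 in NC and 3.84, 2.76 and 2.78 in siPSCA (0.88, adjusted p = 0.0357). AC073335.2 (chromosome 7, 66902857 to 66906297) had 2.28, 1.52 and 0.894 in NC and 2.75, 3.16 and 3.13 in siPSCA (0.68, adjusted p = 0.0296). NC 3 was the lowest library for all 3, and without it the log2 fold changes were 1.00, 0.57 and 0.48, each with an adjusted p under 0.05. Each lost its call when any 1 of the siPSCA libraries was left out, with adjusted p from 0.0564 to 0.115, and AC073335.2 also without NC 2 (adjusted p = 0.0683). With the GC and length trend removed AL390719.2 had 0.85 (adjusted p = 0.0402), while AP001527.2, at 0.32 (adjusted p = 0.128), and AC073335.2, at 0.12 (adjusted p = 0.456), did not pass.

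The remaining large rises kept their call when any library was left out. AP001505.1 (chromosome 21, 44978832 to 44979274) had 3.36, 1.69 and 1.70 FPKM in NC and 4.40, 5.21 and 5.08 in siPSCA (log2 fold change 0.90, adjusted p = 0.012), and FAM207A, 1843 bases away, rose by 0.87. AL035661.1 (chromosome 20, 24931840 to 24932983) had 1.66, 1.76 and 2.44 in NC and 3.46, 3.69 and 4.51 in siPSCA (0.73, adjusted p = 0.00591). AL355512.1 (chromosome 10, 110428840 to 110496204, minus strand), which RefSeq names DUSP5-DT, had 2.65, 2.10 and 1.85 in NC and 4.61, 4.39 and 3.50 in siPSCA (0.69, adjusted p = 0.00653). It starts 1634 bases from DUSP5, a phosphatase that removes phosphate from ERK in the nucleus, and points away from it, yet DUSP5 fell, from 67.9, 68.1 and 59.1 FPKM to 56.1, 55.6 and 54.6 (-0.22, adjusted p = 0.031). Groups were separate for all 3 members and for DUSP5.

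The transcript starts of the rises LINC02331 and AL390719.2 and of the fall FAM160A1-DT are shown because they differ in base composition, and the AL355512.1 promoter because it and its neighbour DUSP5 moved in opposite directions. The first 3 lines hold bases 1 to 120 of the longest transcript in GENCODE release 29 with CG dinucleotides in capitals, of which there are 1, 3 and 16. The fourth holds the RefSeq promoter of AL355512.1 on GRCh38.p14, chr10:110496177-110496476, minus strand, with the motifs ACGTG and GCGTG on either strand in capitals.
LINC02331 transcript: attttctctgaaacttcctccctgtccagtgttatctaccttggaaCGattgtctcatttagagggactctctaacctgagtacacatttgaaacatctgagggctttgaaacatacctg
AL390719.2 transcript: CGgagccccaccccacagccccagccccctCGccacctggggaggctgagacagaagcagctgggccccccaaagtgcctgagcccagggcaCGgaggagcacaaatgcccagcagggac
FAM160A1-DT transcript: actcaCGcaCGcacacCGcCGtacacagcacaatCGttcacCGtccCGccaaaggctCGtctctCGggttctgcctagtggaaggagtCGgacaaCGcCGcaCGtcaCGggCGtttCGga
AL355512.1 promoter: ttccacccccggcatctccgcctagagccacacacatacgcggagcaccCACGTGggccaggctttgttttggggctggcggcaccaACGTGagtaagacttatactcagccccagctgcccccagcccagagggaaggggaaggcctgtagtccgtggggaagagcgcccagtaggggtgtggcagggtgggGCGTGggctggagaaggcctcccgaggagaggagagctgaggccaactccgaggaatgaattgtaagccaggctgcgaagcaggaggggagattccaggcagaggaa

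The RefSeq table held a promoter for 54 members, and for 42 of them a start lay within 300 bases of the start in GENCODE. ACGTG, the core of the hypoxia response element, was found on either strand in 17 of these 42 windows (40.5%) and in 21.4% of all 35116 promoter windows. GCGTG, the core of the dioxin response element, was found in 16 (38.1%, all windows 36.5%) and CCAAT in 18 (42.9%, all windows 34.6%). Of the 5 higher members with a window 3 held ACGTG, of the 10 lower ones 4, and of the 27 not called 10. Matches to different motifs may overlap by some bases, and CACGTG counts as a match to ACGTG on both strands. A match is a stretch of letters and not a bound site. Each member gave a single window, whereas all windows can include several of a gene. They were not limited to expressed genes or matched for base composition, and the cause of the differences in share was not tested.

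Of the 8 most abundant members 4 were called, 1 of them higher. NORAD, the most abundant (ENSG00000260032, chromosome 20, 36045622 to 36050960, minus strand), had 77.8, 77.9 and 91.2 FPKM in NC and 69.6, 66.2 and 69.3 in siPSCA. NC 3 was the highest library, the 3 siPSCA libraries lay below all NC libraries, and the difference was small: a log2 fold change of -0.26 ± 0.073 (adjusted p = 0.0269). With the trend on GC content and length removed from each library the value was 0.01 (adjusted p = 0.891), without NC 3 it was -0.19 (adjusted p = 0.00669), and without any 1 siPSCA library the adjusted p ranged from 0.0656 to 0.0925.

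The NORAD transcript is known as a platform for Pumilio proteins, which bind the sequence TGTANATA in RNA. On the sense strand of its single exon of 5339 bases this sequence was found 15 times, 2.81 per kilobase. Among the longest transcripts of 13792 genes tested 28.7% held it at least once, and among the members 21 of 171 (12.3%) held it. The median gene length was 1069 bases in the members and 4319 over all genes tested, and the shares were not adjusted for length. Only 2 genes, NORAD included, held it as often as NORAD or more. No other member had more than 2 copies. This motif was added with the results known. Bases 1130 to 1279 are shown because they hold 2 copies within 150 bases, in capitals.
NORAD transcript: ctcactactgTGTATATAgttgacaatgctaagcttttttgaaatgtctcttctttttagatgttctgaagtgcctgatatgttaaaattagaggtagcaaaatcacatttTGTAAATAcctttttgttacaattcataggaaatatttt

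AC105460.1 was the only abundant member that rose. This spliced transcript of 830 bases (ENSG00000250920) on chromosome 4 (103550927 to 103559127, minus strand) had 47.0, 47.9 and 44.2 FPKM in NC and 67.7, 66.5 and 69.1 in siPSCA (log2 fold change 0.54 ± 0.049, adjusted p = 0.000953). AC092306.1, a single exon of 310 bases on chromosome 19 (44803701 to 44804010), had 41.1, 37.4 and 44.2 in NC and 24.6, 22.5 and 23.9 in siPSCA (-0.76 ± 0.073, adjusted p = 0.00105). AC015813.1 (chromosome 17, 57989039 to 57994850) had 36.7, 34.3 and 35.3 in NC and 23.0, 24.7 and 24.5 in siPSCA (-0.54, adjusted p = 0.00108; -0.24 with the GC and length trend removed, adjusted p = 0.0163). Groups were well separated for all 3. AC015813.1 shares 379 exon bases with AC015813.2 on the same strand, so reads of the shared part cannot be assigned, and CBLC, 3049 bases from AC092306.1, rose by 0.48.

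The other abundant members did not pass. AC078820.1 had 23.3, 18.6 and 18.7 FPKM in NC and 24.8, 22.9 and 25.4 in siPSCA (log2 fold change 0.26, adjusted p = 0.0637), and NC 1 overlapped the siPSCA range. AC011450.1 had 22.4, 17.8 and 20.6 against 18.3, 16.7 and 19.2 (-0.15, adjusted p = 0.214), and AC005256.1 had 18.1, 20.1 and 15.5 against 15.2, 12.0 and 15.8 (-0.30, adjusted p = 0.0996). AC078923.1 had 16.2, 16.8 and 16.4 against 14.4, 18.0 and 19.1 (0.05, adjusted p = 0.72). In all 4 the groups overlapped. AC078820.1 passed without NC 1, at 0.37 (adjusted p = 0.00997), and AC005256.1 without NC 3, at -0.39 (adjusted p = 0.0362). Both were also called with the GC and length trend removed, at 0.55 and -0.94, in opposite directions.

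**Figure D3:**
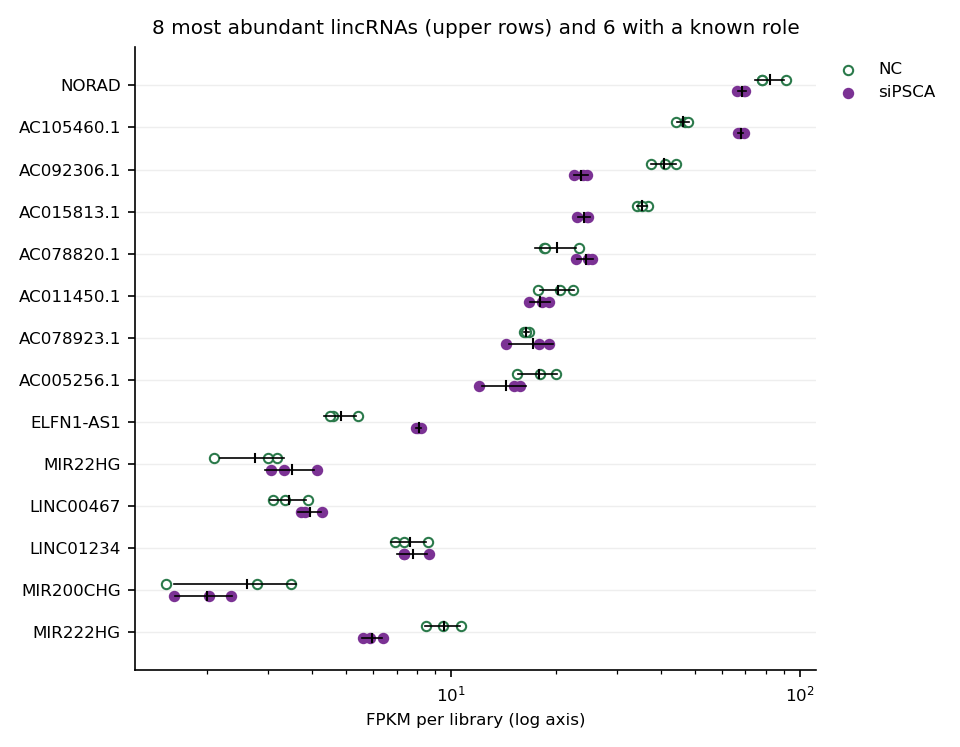
FPKM of each library (horizontal, log axis) for the 8 most abundant members (NORAD to AC005256.1) and 6 further members with a reported role (ELFN1-AS1 to MIR222HG). Open circles are NC, filled circles siPSCA, ticks the group means and bars 1 SD; AC105460.1 and ELFN1-AS1 lie higher in siPSCA, and MIR222HG falls from a mean of 9.55 to 5.95.

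Of the members, 3 are microRNA hosts, from which microRNAs are cut in the nucleus. A microRNA pairs with its targets through its seed, bases 2 to 8, and the 3p strands from the hosts are given with the seed in capitals, from RefSeq on GRCh38.p14. The first 2 lines come from MIR222HG, the third from MIR22HG and the last 2 from MIR200CHG. The seeds of miR-221-3p and miR-222-3p are the same letters.
hsa-miR-221-3p: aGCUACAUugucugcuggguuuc
hsa-miR-222-3p: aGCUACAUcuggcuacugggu
hsa-miR-22-3p: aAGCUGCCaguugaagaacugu
hsa-miR-200c-3p: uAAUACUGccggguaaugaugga
hsa-miR-141-3p: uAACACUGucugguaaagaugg

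Of these hosts only MIR222HG passed. MIR222HG (ENSG00000270069) lies on the minus strand of chromosome X (45745211 to 45770274), and its microRNAs, which lower the cell cycle inhibitor p27, are read from within it. It had 10.7, 9.48 and 8.48 FPKM in NC and 5.86, 5.62 and 6.39 in siPSCA, so that every siPSCA library lay below every NC library (log2 fold change -0.60 ± 0.091, adjusted p = 0.00352). With the GC and length trend removed the value was -0.32 (adjusted p = 0.0474). MIR22HG (chromosome 17, 1711493 to 1717174) had 2.99, 3.17 and 2.10 in NC and 3.05, 4.13 and 3.33 in siPSCA (0.27, adjusted p = 0.168), with overlapping groups. MIR200CHG (chromosome 12, 6963246 to 6964447), host of microRNAs that keep cells epithelial, had 1.53, 2.79 and 3.48 against 2.03, 1.61 and 2.35 (-0.23, adjusted p = 0.41), on 9 to 21 reads per library. The groups overlapped there too, and without NC 1, its lowest NC library, the value was -0.47 (adjusted p = 0.0441). The libraries measure the host transcripts, and levels of the mature microRNAs were not analysed here.

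From the list of lincRNAs reported in colorectal cancer that was used here, the members were ELFN1-AS1, which rose, and LINC01234, which did not pass. That list was not complete, so other members, called or not, may also have been reported there. ELFN1-AS1, which promotes growth of colorectal cancer cells, lies on chromosome 7 (1738630 to 1742291, minus strand) and had 5.42, 4.59 and 4.52 FPKM in NC and 8.25, 8.08 and 7.94 in siPSCA (log2 fold change 0.64 ± 0.073, adjusted p = 0.00161). Its groups were well apart, and with the GC and length trend removed the value was 0.24 (adjusted p = 0.0661). LINC01234 (chromosome 12, 113679459 to 113773683) had 6.91, 7.34 and 8.62 in NC and 7.33, 7.34 and 8.69 in siPSCA (0.03, adjusted p = 0.83). LINC00467, which encodes a small mitochondrial protein, had 3.09, 3.34 and 3.89 in NC and 3.83, 3.72 and 4.28 in siPSCA (0.16, adjusted p = 0.185). The ranges of both overlapped between the groups. LINC00467 passed without NC 3, at 0.23 (adjusted p = 0.0445), and with the GC and length trend removed, at 0.34 (adjusted p = 0.00811).

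The members' fold changes varied with the GC content of their transcripts, as those of all genes did. Across the 171 members Spearman's rho between log2 fold change and GC content was 0.418, and across 13792 genes tested 0.675, points that share the same 6 libraries. Of 42 members with a GC content under 42%, 24 were lower and 1 was higher, shares of 57.1% and 2.38%, and among 2933 genes tested in this range the shares were 55.7% and 2.97%. Of 38 members with a GC content of at least 52%, 10 were higher and 6 lower, shares of 26.3% and 15.8%, where 5450 genes tested in that range had 53.6% and 4.73%. The 91 members between these limits had 9 higher and 18 lower, shares of 9.89% and 19.8%, where 5409 genes tested in that range had 12.2% and 26.6%.

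NC 3 moved along the same axis. Its deviation from the other NC libraries correlated with GC content at a rho of -0.328 over the members and of -0.571 over all genes, so GC-rich transcripts were low in this NC library. With the trend on GC content and length removed from each library, 58 members were called, 22 higher and 36 lower, and the median was -0.06. These were 12.9% and 21.1% of the members, where 21.6% of all genes were higher and 18.3% lower with a median of 0.02. Of the 68 members called before, 44 were called in the same direction, 14 of the 20 higher and 30 of the 48 lower, and 0 in the opposite one. The values of 3 called members, NORAD among them, changed sign and did not pass. Of the 8 largest rises 6 passed both ways and of the 8 largest falls 6, the exceptions being AP001527.2, AC073335.2, AC011374.2 and AC127024.5. The part of base composition in the remaining calls was not tested.

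Members were also counted by position, to be read against 24.2% lower and 26.6% higher over all genes tested. Of 65 members more than 10000 bases from a protein-coding gene, 25 were lower (38.5%) and 8 higher (12.3%). Of 66 within that distance but outside the gene 11 were lower (16.7%) and 9 higher (13.6%), and of 40 that overlap a gene body 12 were lower (30.0%) and 3 higher (7.50%). The median GC content of these groups was 44.08, 49.12 and 48.08%, so position and base composition moved together. Members with 1 exon had 20 lower (38.5%) and 7 higher (13.5%) among 52, and those with more exons 28 lower (23.5%) and 13 higher (10.9%) among 119. Whether reads were counted by strand is not given in the sources used here. Of 30 members whose exons overlap another gene's on the opposite strand 7 were lower (23.3%) and 2 higher (6.67%), and without these 30 the median was -0.17.

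The nearest protein-coding gene was tested for 134 members. Of the 51 called members among them, 26 had a neighbour that was called in the same direction, 4 had one called in the opposite direction, and 21 had one that did not pass. The neighbours of the 37 lower members were lower in 54.1% and higher in 5.41%, those of the 14 higher members higher in 42.9% and lower in 14.3%, and those of the 83 members not called higher in 26.5% and lower in 26.5%. Spearman's rho between the log2 fold changes of a member and its neighbour was 0.31 over the 134 pairs. It was 0.46 over 33 overlapping the gene body, 0.23 over 58 up to 10000 bases away and 0.10 over 43 further away. Within the overlapping pairs it was 0.76 over the 8 on the same strand and 0.28 over the 25 on opposite strands. The part of shared reads and of base composition in these values was not tested. All pairs share the same libraries. Of 18 tested pairs that share a start region and point away from each other, 11 had the same sign, and FAM160A1-DT with FAM160A1 was the only such pair in which both were called.

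Neighbours that moved together included growth factor and signalling genes, named after their values were seen. LINC02458 (chromosome 12, 89010681 to 89019679) fell from 8.66, 9.55 and 10.2 FPKM to 5.04, 5.26 and 5.06 (log2 fold change -0.77, adjusted p = 0.000902), and DUSP6, a phosphatase of ERK in the cytoplasm that lies 327553 bases away, fell from 146, 153 and 157 FPKM to 92.9, 90.1 and 92.9 (-0.72, adjusted p = 0.000408). AC125807.2, 764 bases downstream of TEAD4, a DNA-binding partner of YAP, had 2.12, 1.78 and 2.03 FPKM in NC and 3.03, 2.77 and 2.78 in siPSCA (0.38, adjusted p = 0.00952), and TEAD4 rose by 0.47. With the GC and length trend removed LINC02458 had -0.52 and passed, whereas AC125807.2 had 0.14 (adjusted p = 0.213). In both pairs the groups of the member were separate. LINC02458 with DUSP6, like LINC02331 with BMP4, is a pair over 10000 bases apart. Of the 43 tested pairs at such distances 24 had the same sign, and rho was 0.10.

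The 4 pairs with opposite calls were AL355512.1 with DUSP5 and AC092306.1 with CBLC, described above, and LINC00346 with ANKRD10 and LINC01876 with NR4A2. LINC00346 (chromosome 13, 110863987 to 110870251) had 1.56, 1.41 and 1.59 FPKM in NC and 2.76, 3.01 and 2.81 in siPSCA (log2 fold change 0.62, adjusted p = 0.00178), whereas ANKRD10, 8289 bases upstream on the same strand, fell by 0.40. LINC01876 had 2.02, 2.54 and 2.63 in NC and 1.78, 1.80 and 1.74 in siPSCA (-0.29, adjusted p = 0.0442), while NR4A2, an early response transcription factor, rose by 0.33. The groups of both members were separate, and LINC01876 lost its call without any 1 of 5 libraries, NC 3 among them (-0.24, adjusted p = 0.0908), and with the GC and length trend removed (-0.14, adjusted p = 0.197).

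Genes that end and degrade non-coding transcripts were also counted, to be read against the 50.7% of all genes that passed. Of 21 genes of the nuclear exosome and its adaptors 3 were higher (14.3%) and 6 lower (28.6%), and their median log2 fold change was -0.14. Their median GC content was 42.05%, against 48.85% over all genes tested, and the part of base composition in these calls was not tested. ZFC3H1, which brings polyadenylated nuclear RNA to the exosome, had 10.6, 11.3 and 10.9 FPKM in NC and 5.00, 5.66 and 5.74 in siPSCA (-0.88, adjusted p = 0.000598), and DIS3, a catalytic subunit, had 13.8, 14.1 and 16.2 against 8.31, 8.59 and 8.78 (-0.71, adjusted p = 0.00116). PABPN1, a nuclear poly(A) binding protein, had 7.65, 8.12 and 3.89 against 21.2, 19.1 and 15.3 (1.41, adjusted p = 0.00603), with NC 3 far below the other NC libraries. In these 3 genes the groups did not overlap. Of 14 genes of the Integrator complex, which ends transcription of many non-coding RNAs, 4 were higher, among them INTS1 with 0.83, and 5 lower, among them INTS8 with -0.54, in all 64.3%. Any link between these genes and the members was not tested.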

How the data were processed

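The data were a deposited table in which the authors gave FPKM for 58735 genes from paired-end reads of NEBNext Ultra libraries. Per the labels the build was GRCh38, and all gene positions matched GENCODE release 29. The aligner, the counting program, poly(A) selection and strand are not given in the sources used here. FPKM multiplied by gene length gave whole reads for 100% of values within 0.1 read. All genes whose mean FPKM reached 1 were fitted with limma 3.58.1 in R 4.3.3 (lmFit, eBayes with a trend) on log2(FPKM + 1), group as the only term, with Benjamini-Hochberg adjustment and calls at 0.05, two-sided; this scale understates changes of low genes. An exact permutation test of 3 against 3 libraries cannot go below 0.1. Tables and figures used Python 3.11.15. The fit was also run on simulated reads that had no trend on GC content and no outlying library. That run cannot speak to these features of the data. GC content was averaged over GENCODE transcripts, weighted by length. Members named in full were the 8 largest rises and falls among called members with separate groups, the 8 most abundant, and members on role lists. Other members, apart from those at the edge of the rule, were named after their values were seen, LINC00346 and LINC01876 among them. So were the exosome and Integrator genes given by value. Neighbours were named with their members. The members and lists were chosen with earlier results of these data known. Same-numbered libraries were compared for pairing. Alternatives were another pseudocount, other minimum levels, TPM, median-of-ratios scaling, limma-voom on recovered reads, removal of a GC and length trend, a replicate block, other call rules, other member limits and leaving out each library.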

Additional observations from a re-analysis of the deposited data

How the results depend on the processing

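All 68 calls kept their sign and 47 their call in every fit that left out 1 library. In those fits 52 to 77 members were called, 15 to 24 higher and 36 to 53 lower, with a median log2 fold change from -0.14 to -0.12; the counts were lowest without siPSCA 1 or siPSCA 2 and highest without NC 3. The median was -0.17 with a pseudocount of 0.1, -0.21 on TPM, -0.06 with the GC and length trend removed and -0.17 without the members that overlap another gene's exons on the opposite strand. Requiring also an absolute log2 fold change over 1 left 10 calls, 3 higher and 7 lower, and a minimum mean FPKM of 5 left 20, 6 higher and 14 lower, in the second case by construction among 43 members. NORAD had 0.01 with the GC and length trend removed, AC078923.1 ranged from -0.03 (without siPSCA 3) to 0.16 when 1 library was left out, and LINC01234 had -0.02 on TPM and ranged from -0.04 (without siPSCA 3) to 0.11, with -0.03 without NC 1; the cause was not tested. Limma-voom on recovered reads called 62 members (21 higher, 41 lower). It kept direction and side of the threshold for all 30 named members, as did median-of-ratios scaling, a minimum of 2 and the replicate block. When no minimum FPKM was set, with adjustment over 34391 genes, 53 members were called, 16 higher and 37 lower. AL390719.2, AP001527.2, AC073335.2, AC011374.2 and NORAD then lost their call, with adjusted p from 0.0581 to 0.0958. With the replicate block 71 members were called, 23 higher and 48 lower, but deviations of same-numbered libraries correlated at only 0.0955, 0.0132 and 0.134, so the numbers were not taken to pair the samples. Depth limits the members with few reads: 60 had under 50 reads per library on average.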
